A study of Mus musculus with 51 samples.

Results

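A set of 6 genes that do not encode homeobox factors was followed across neurons with and without Polycomb repressive complex 2 (PRC2): Stxbp2, Sfmbt2, Kcp, Echdc2, Wnk4 and BC061194. They are 6 of the 24564 genes in the count table, and all 6 rows were found. They were chosen by their measured values, as genes that were higher in the mutant dopaminergic neurons at 4 months, so that contrast is given below as a description with no test. The same holds for the change of the dopaminergic effect between 4 and 8 months. Tests were made only on contrasts of 8-month dopaminergic groups and of serotonergic groups, which come from other animals. The fit for the 8-month dopaminergic contrast also held the 4-month dopaminergic libraries. Those libraries share in its estimates of spread and of the sex effect, so its p-values are not fully independent of the choice. With the 8-month dopaminergic libraries alone all 6 genes were called too, where 229 of 13956 genes were called higher.

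The study sorted neurons from adult mouse midbrain and made 51 Smart-seq2 RNA libraries, each from 1 animal by its replicate label. Dopaminergic neurons (mDA) came from the DatCreEed strain, named for Cre under the dopamine transporter gene, and serotonergic neurons (5HT) from SertCreEed, named for Cre under the serotonin transporter gene. Within each strain the labels give the genotype as wt or PRC2 mutant and the age as 4 or 8 months. The labels do not say which Cre or Eed alleles the wt animals carried. The 8 groups were mDA wt (n = 9) and mDA mutant (n = 10) at 4 months, mDA wt (n = 8) and mDA mutant (n = 8) at 8 months, and 4 libraries in each of the 5HT groups, wt and mutant at either age. The mDA libraries were sequenced in sets labelled set1, set2 and set3, and the 5HT libraries all in set1.

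PRC2 is an enzyme complex, with Eed as a core subunit, that places methyl groups on lysine 27 of histone H3 and keeps its target genes silent. It is known for holding developmental regulators and genes of other cell types silent in adult cells, often at promoters rich in the dinucleotide CG. Homeobox and other transcription factor genes are its best known targets, whereas these 6 genes encode a membrane fusion protein, an MBT-repeat protein of the Polycomb family, a secreted BMP modulator, a mitochondrial enzyme, a kinase and a cilium protein.

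Promoters are shown for the gene whose mutant effect differed between the cell types, the gene with the fewest CG and the gene with the largest fold change. The letters are from RefSeq on GRCm38.p6, 250 bases before to 50 after a transcription start, 5′ to 3′ on the gene's strand, and capitals mark each CG, a motif that reads the same on both strands.
Stxbp2, chr8:3630859-3631158, plus strand: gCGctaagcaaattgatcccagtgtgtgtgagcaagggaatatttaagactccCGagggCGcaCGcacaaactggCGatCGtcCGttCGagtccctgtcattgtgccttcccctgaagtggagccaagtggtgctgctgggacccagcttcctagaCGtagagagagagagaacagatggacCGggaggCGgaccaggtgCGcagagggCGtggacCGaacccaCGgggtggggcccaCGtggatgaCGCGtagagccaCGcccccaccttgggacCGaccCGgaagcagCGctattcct
Sfmbt2, chr2:10370201-10370500, plus strand: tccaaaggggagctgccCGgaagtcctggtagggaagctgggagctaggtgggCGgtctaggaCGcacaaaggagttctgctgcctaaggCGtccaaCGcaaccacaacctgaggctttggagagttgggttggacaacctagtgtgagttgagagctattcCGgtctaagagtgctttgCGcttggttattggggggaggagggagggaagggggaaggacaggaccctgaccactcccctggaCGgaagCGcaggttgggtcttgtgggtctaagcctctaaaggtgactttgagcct
BC061194, chr2:18698772-18699071, plus strand: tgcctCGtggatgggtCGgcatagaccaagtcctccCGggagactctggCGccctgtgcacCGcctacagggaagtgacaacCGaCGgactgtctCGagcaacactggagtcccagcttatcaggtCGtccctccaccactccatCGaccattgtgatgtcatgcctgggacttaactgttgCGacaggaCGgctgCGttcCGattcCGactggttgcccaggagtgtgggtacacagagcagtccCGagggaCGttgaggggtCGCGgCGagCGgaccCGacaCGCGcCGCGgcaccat
The motif CG occurred 22 times in the Stxbp2 window, 9 times in this Sfmbt2 window and 26 times in the BC061194 window. The BC061194 window lies inside the gene body, which RefSeq places from 18694011 to 18749746, and not at its outer start. A further Sfmbt2 start had 16, and the Kcp, Echdc2 and Wnk4 windows had 23, 17 and 21. Over the 32851 promoter windows in the RefSeq table the median was 7, and 94.6% held at least 1 CG. By CG count, 78.5% of all windows lay at or below Stxbp2, 56.5% at or below this Sfmbt2 window and 84.5% at or below BC061194. For the further windows the share was between 68.6% and 80%. The ratio of observed to expected CG was 0.79 for Stxbp2, 0.39 for the Sfmbt2 window shown and 0.88 for BC061194, against a median of 0.38 over all windows. These are descriptions of sequence only, since no binding or histone mark was measured here.

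The libraries matched their labelled neuron types by the defining markers. Th and Slc6a3, the dopamine-synthesis enzyme and the dopamine transporter, averaged 1696 and 2824 CPM (counts scaled to a common library size) in mDA wt at 8 months, and 20.8 and 20.9 in 5HT wt of the same age. Tph2 and Slc6a4, their serotonin counterparts, averaged 2738 and 2679 CPM in 5HT wt at 8 months and 5.89 and 1.92 in mDA wt. Eed was not lower in mutants: its mean was 14.1 CPM in wt and 23.7 in mutants for mDA at 4 months, and 13.5 and 22.4 at 8 months. In 5HT its mean was 10.2 in wt and 24.9 in mutants at 4 months, and 13.5 and 17.5 at 8 months. Because these counts span all exons, deleted or not, they do not check the genotype. Total counts ran from 1644460 to 12250492 per library. A count of 3, the upper limit that a count of 0 allows, corresponds to between 0.245 and 1.82 CPM. CPM are not divided by gene length, so levels are compared between groups and not between genes.

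**Figure D1:**
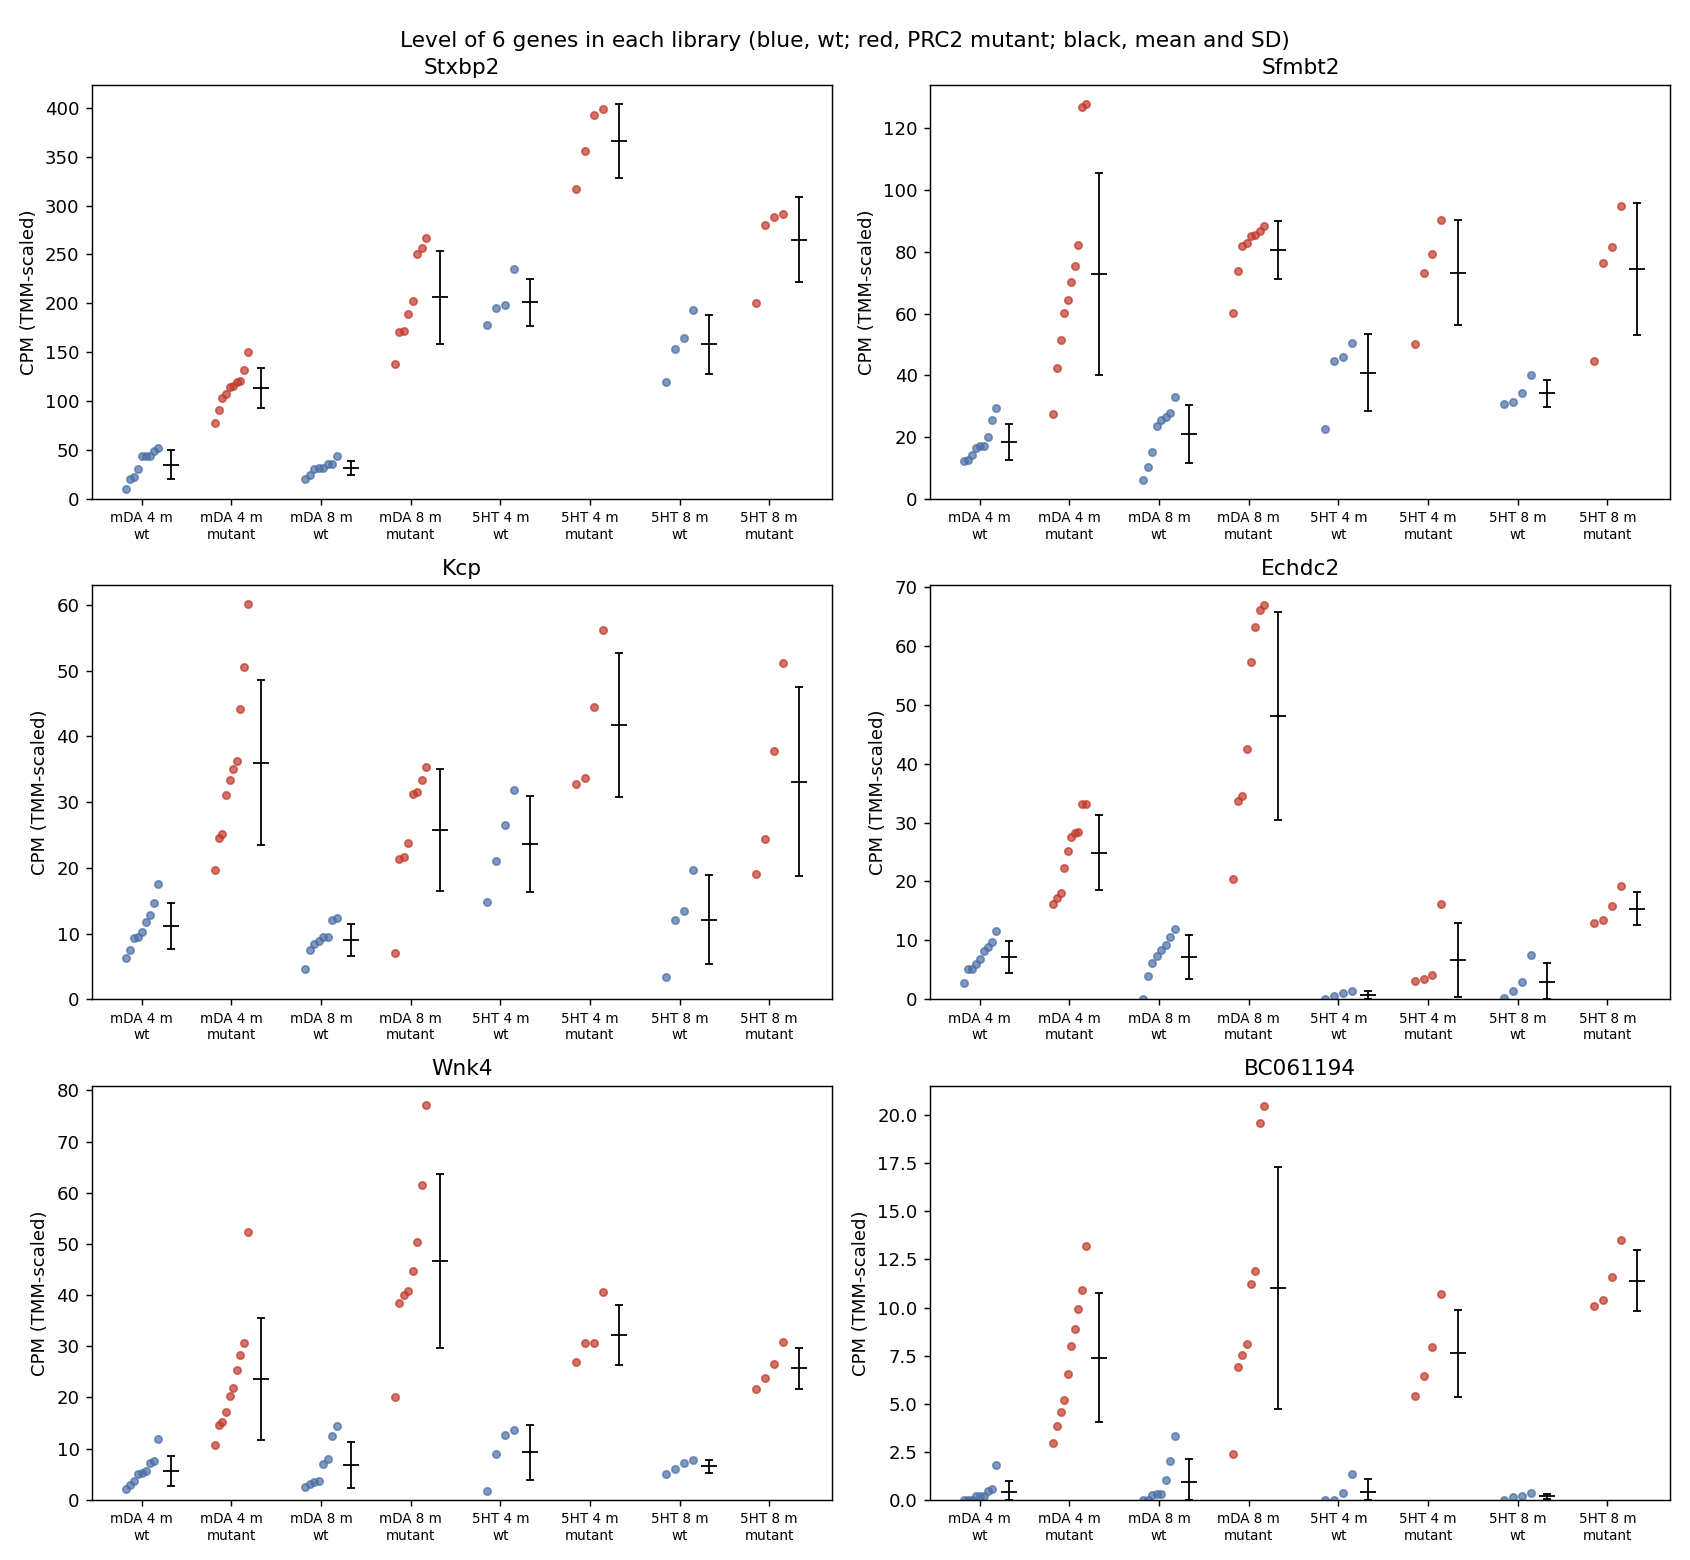
Level of each of the 6 genes (y axis, CPM on TMM-scaled library sizes, starting at 0) in each of the 51 libraries, by cell type, age (m, months) and genotype. Points are libraries, black bars are the mean and SD; in mDA at 8 months every mutant lies above every wt for Stxbp2, Sfmbt2, Echdc2 and Wnk4, and 1 mutant reaches into the wt range for Kcp and for BC061194.

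Stxbp2 encodes Munc18-2, a Sec1/Munc18 protein that binds syntaxins and drives fusion of secretory granules, best known in immune and epithelial cells. The gene lies on chromosome 8 from 3630960 to 3643998 on the plus strand (GRCm38), over 18 exon blocks. In mDA at 4 months, the contrast used to choose it, levels ran from 9.57 to 52.1 CPM in wt (median 43.3) and from 77.4 to 150 in mutants (median 115). The 8-month wt libraries ran from 20.7 to 43.6 (median 31.6) and the mutants from 138 to 267 (median 196), so the lowest mutant was above the highest wt at both ages. At 8 months Stxbp2 rose 6.42-fold in mutants, a log2 fold change of 2.68 ± 0.19 (SE) with an adjusted p of 1.64e-13 in edgeR. Its SE was the smallest among the 6 genes in this contrast, and the value was 2.72 within set1 and 2.63 within set2. The mDA wt level was far below that of 5HT wt, where 8-month libraries had 119, 153, 165 and 193 CPM. Between the wt cell types at 8 months the difference was -2.31 ± 0.21 (log2, mDA against 5HT, adjusted p = 8.24e-08, edgeR).

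In 5HT neurons the fold change of Stxbp2 was smaller than in mDA, from a higher wt level. At 4 months the wt libraries had 178, 195, 198 and 235 CPM and the mutants 317, 356, 393 and 399. The 8-month mutants had 200, 280, 288 and 291 CPM, again above the wt values given above. The groups did not overlap at either age, with log2 fold changes of 0.88 ± 0.19 at 4 months (adjusted p = 0.163, edgeR) and 0.75 ± 0.19 at 8 months (adjusted p = 0.124, edgeR), neither of which passed the threshold of 0.05. The lowest 8-month mutant, animal S443, stood at 200 CPM against 280 for the next. The mutant effect at 8 months was larger in mDA than in 5HT by 1.92 ± 0.23 on the log2 scale (95% interval 1.44 to 2.40, adjusted p = 9.18e-06, edgeR). Ordered by mean, Stxbp2 was lowest in mDA wt (31.7 ± 7.12 CPM at 8 months, SD, and 35 ± 14.8 at 4 months), followed by 4-month mDA mutants at 113 ± 20.4. Next came 5HT wt at 158 ± 30.5 at 8 months and 201 ± 24 at 4 months. The 8-month mDA mutants averaged 206 ± 47.1 CPM, above both 5HT wt means. Their libraries overlapped those of 5HT wt, and some lay above every 5HT wt library. By set they had 202 to 267 CPM in set1 and 138 to 189 in set2. Their mean was below those of the 5HT mutants of 8 months, whose libraries are given above, and of 4 months (366 ± 37.8). Neighbouring groups in this order overlapped, except mDA wt against 4-month mDA mutants and the 5HT mutants of the 2 ages.

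Sfmbt2 encodes a protein with MBT repeats, a fold that binds methylated histone tails, and is related to Polycomb-group repressors. It is a long gene of 225 kb on chromosome 2 (10370440 to 10595253, plus strand). At 8 months mDA wt had 6.24 to 33.0 CPM (median 24.6) and mutants 60.2 to 88.5 (median 84.1), with no overlap. The log2 fold change was 1.82 ± 0.27 (adjusted p = 7.53e-06, edgeR), or 3.53-fold. The 4-month values used in the choice were 12.2 to 29.5 CPM in wt (median 17.0) and 27.4 to 128 in mutants (median 67.4), and here the groups overlapped at 1 mutant, animal C213. Mutant spread was wide at 4 months (SD 32.8 CPM) and narrow at 8 months (SD 9.35). In 5HT at 4 months the wt libraries had 22.6, 44.7, 45.8 and 50.6 CPM and the mutants 50.1, 73.0, 79.4 and 90.4, an overlap at the lowest mutant. The 8-month wt had 30.7, 31.5, 34.4 and 40.2 and the mutants 44.6, 76.3, 81.7 and 95, which were all above wt. Neither difference passed the threshold, at 0.88 ± 0.29 at 4 months (adjusted p = 0.599) and 1.16 ± 0.29 at 8 months (adjusted p = 0.0976, edgeR for both).

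An intron of Sfmbt2 carries a large cluster of microRNA genes. The table lists 47 hairpin rows inside the gene, and together they held 19 to 102 counts per group. None had enough counts to be tested in either cell type, and a poly(A)-primed long-RNA library is not a measure of mature microRNA.

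Kcp encodes kielin/chordin-like protein, a secreted protein with chordin-type cysteine-rich repeats that is known to enhance BMP signalling. It lies on chromosome 6 (29473162 to 29508003, minus strand) and has 47 exon blocks. At 8 months mDA wt had 4.66 to 12.3 CPM (median 9.14) and mutants 7.05 to 35.4 (median 27.5). Of the mutants, 1 library (D176) lay inside the wt range and the next lowest was at 21.3. Kcp rose by 1.64 ± 0.30 on the log2 scale, 3.12-fold (adjusted p = 2.42e-04, edgeR), and by 1.78 without D176 (adjusted p = 2.33e-05). At 4 months, where it was chosen, wt had 6.28 to 17.5 (median 10.2) and mutants 19.7 to 60.1 (median 34.2). In 5HT the 4-month wt libraries had 14.8, 21.1, 26.5 and 31.9 CPM and the mutants 32.7, 33.7, 44.4 and 56.1. At 8 months wt had 3.32, 12, 13.5 and 19.7 and mutants 19.1, 24.3, 37.7 and 51.2. The lowest 8-month mutant overlapped the highest wt, and the log2 differences of 0.85 ± 0.43 (adjusted p = 0.819) and 1.45 ± 0.45 (adjusted p = 0.31, edgeR for both) did not pass.

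Echdc2 encodes an enoyl-CoA hydratase domain protein of mitochondria, a member of the crotonase family of acyl-CoA enzymes. It lies on chromosome 4 (108165436 to 108179308, plus strand). At 8 months mDA wt had 0 to 11.9 CPM (median 7.82) and mutants 20.4 to 66.9 (median 49.9), with no overlap. Echdc2 rose by 2.41 ± 0.34 on the log2 scale, 5.30-fold (adjusted p = 2.63e-06, edgeR). The 4 mutants of set1 had 57.3 to 66.9 CPM and the 4 of set2 20.4 to 42.5, against 3.99 to 11.9 and 8.29 to 10.5 in the wt of those sets. The log2 difference was 2.94 within set1 and 1.80 within set2. In the 4-month libraries used for the choice, wt had 2.69 to 11.6 (median 6.81) and mutants 16.2 to 33.2 (median 26.3). Echdc2 was low in 5HT neurons. At 4 months the wt libraries had 0, 0.536, 1.0 and 1.41 CPM, which is 14 counts in all, and the mutants 3.12, 3.36, 4.05 and 16.1. At 8 months wt had 0.156, 1.39, 2.90 and 7.47 and mutants 13, 13.5, 15.8 and 19.2. The mutants were above wt at both ages, with log2 differences of 3.12 ± 0.97 (adjusted p = 0.561) and 2.76 ± 0.91 (adjusted p = 0.398, edgeR for both). The 4-month value was 2.44 without the highest mutant, animal S427.

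Wnk4 encodes a kinase of the with-no-lysine family, best known in the distal kidney tubule for setting the activity of cation-chloride cotransporters through the kinases Stk39 and Oxsr1. It lies on chromosome 11 (101260537 to 101277409, plus strand). At 8 months mDA wt had 2.45 to 14.5 CPM (median 5.24) and mutants 20.1 to 77.1 (median 42.7), with no overlap. Wnk4 rose by 2.86 ± 0.38 on the log2 scale, 7.26-fold (adjusted p = 9.15e-07, edgeR). At 4 months wt had 2.01 to 11.8 (median 5.29) and mutants 10.8 to 52.3 (median 21.0), which overlapped at 1 mutant, again C213. In 5HT at 4 months wt had 1.79, 8.91, 12.7 and 13.7 CPM and mutants 26.9, 30.6, 30.7 and 40.6. At 8 months wt had 4.99, 6.06, 7.27 and 7.78 and mutants 21.7, 23.8, 26.5 and 30.9. Every mutant exceeded every wt at both ages, yet the log2 differences of 1.83 ± 0.46 (adjusted p = 0.326) and 1.92 ± 0.46 (adjusted p = 0.0813, edgeR for both) missed the threshold. Without the sex term the 8-month 5HT value was 1.99 (adjusted p = 0.0493).

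BC061194 is the table's older name for a row whose RefSeq transcript belongs to Spag6, a protein of the central apparatus of motile cilia and sperm tails. It lies on chromosome 2 (18694011 to 18749746, plus strand). Wild-type levels were close to nothing in both cell types: 26 counts over the 8 wt mDA libraries at 8 months, and 4 over the 4 wt 5HT libraries of that age. At 8 months mDA wt had 0 to 3.34 CPM (median 0.291) and mutants 2.39 to 20.5 (median 9.64). The overlap came from 1 wt library, C250 at 3.34, and 1 mutant, D161 at 2.39. BC061194 rose by 4.54 ± 0.78 on the log2 scale, 23.3-fold (adjusted p = 1.10e-04, edgeR). At 4 months wt had 0 to 1.80 (median 0.220) and mutants 2.94 to 13.2 (median 7.27). In 5HT at 4 months wt had 0, 0, 0.353 and 1.34 CPM and mutants 5.42, 6.46, 7.94 and 10.7, with a log2 difference of 4.36 ± 1.02 that did not pass (adjusted p = 0.244, edgeR). It was 5.70 without wt S369 (adjusted p = 0.0623). At 8 months wt had 0, 0.156, 0.181 and 0.347 and mutants 10.1, 10.4, 11.6 and 13.5. Of the 6 genes only BC061194 passed in 5HT in edgeR, with a rise of 5.79 ± 1.08 (adjusted p = 0.0111, edgeR). In both cell types BC061194 passed the low-count filter only through its mutant libraries, since its wt libraries held too few counts. A rise was therefore the only change that could be called for it. The call was lost without wt S382 (adjusted p = 0.0507), wt S383 (0.0666) or wt S385 (0.0607), while the difference stayed between 5.48 and 6.15 in the 8 fits that left out 1 library.

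The row that the table itself calls Spag6 matches RefSeq Spag6l, the paralogue on another chromosome, and was looked at after its values were known. It averaged 4.10 CPM in mDA wt and 4.37 in mutants at 8 months, a log2 difference of -0.52 ± 0.72 (adjusted p = 0.766, edgeR). In 5HT at 8 months the means were 1.75 and 0.853. Reads shared by these 2 similar genes could have been split between the rows, so the level of BC061194 is uncertain to that extent.

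**Figure D2:**
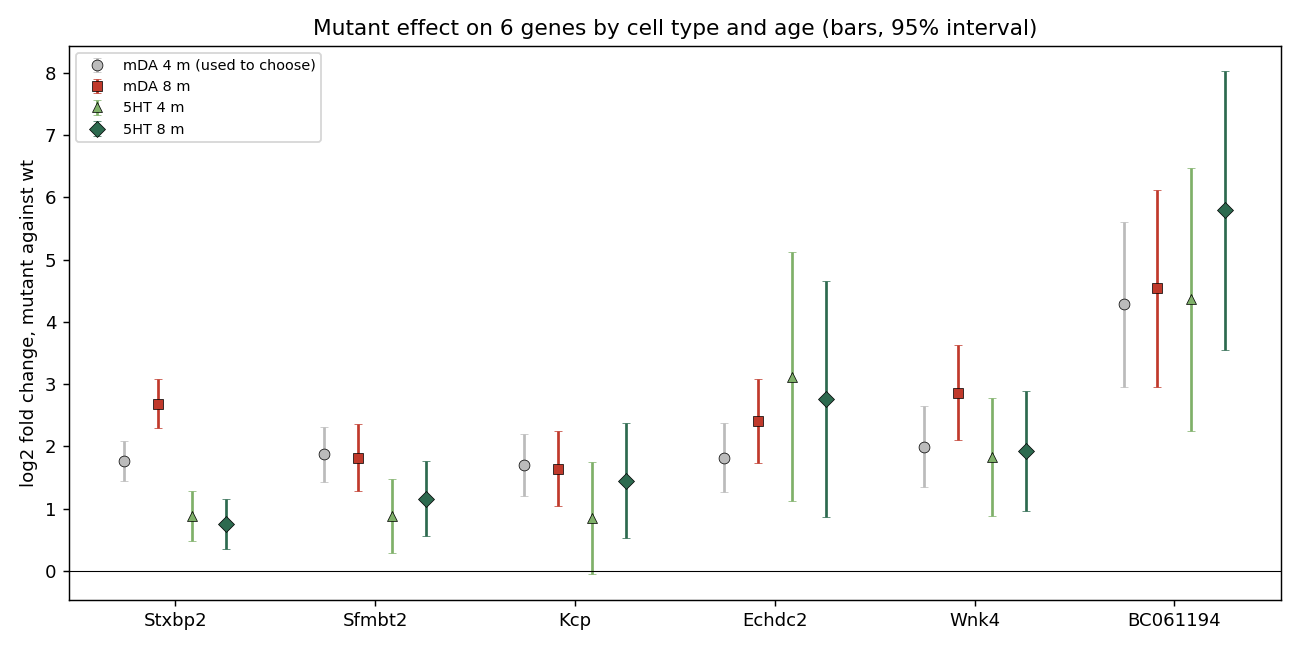
Log2 fold change of mutant against wt (y axis) for each of the 6 genes in mDA and 5HT neurons at 4 and 8 months (m, months), with 95% intervals from edgeR. Grey circles are the contrast that chose the genes, so they lie above 0 by choice. All values of the other contrasts shown are above 0 too. Stxbp2 is the gene whose 8-month effects differ most clearly between cell types (2.68 in mDA and 0.75 in 5HT).

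At 8 months all 6 genes passed the test in mDA, 6 of 6 higher, with a median log2 fold change of 2.55 against 0.02 over all genes tested. Over all 15425 genes tested, 2.44% were called higher. Every mutant was above every wt for 4 of the 6, and for 0.888% of all genes. Of the 8 wt libraries, C250 and D833 form set3 with no mutant beside them and so do not enter this contrast. In bulk libraries of sorted cells, a change in the number of cells of a type and a change in RNA per cell cannot be told apart. At 4 months 0.577% of 15425 genes were called higher, and the 6 are among them by choice, so nothing is read from that count. Their log2 differences there were 4.28 for BC061194, 1.99 for Wnk4, 1.87 for Sfmbt2, 1.82 for Echdc2, 1.77 for Stxbp2 and 1.70 for Kcp. From 4 to 8 months the effect in mDA moved by 0.91 ± 0.23 for Stxbp2, 0.87 ± 0.46 for Wnk4 and 0.59 ± 0.41 for Echdc2. The corresponding moves for BC061194, Sfmbt2 and Kcp were 0.26 ± 1.05, -0.05 ± 0.33 and -0.06 ± 0.37. These differences share the 4-month libraries that chose the genes and are given with no test.

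At 4 months sex and set were uneven in mDA. Set1 held 3 wt males and 4 mutant females, set2 held 4 wt and 4 mutants of both sexes, and set3 held 2 wt females and 2 mutant males. For all 6 genes the lowest mutant was above the highest wt within each of the 3 sets, a description that the choice of the genes largely fixes and that supports nothing. In set2, where the sexes were balanced, the log2 differences were 1.62 for Stxbp2, 1.81 for Sfmbt2, 1.80 for Kcp, 2.00 for Echdc2, 1.79 for Wnk4 and 4.55 for BC061194. The sexes were uneven at 8 months too: set1 held 1 female and 3 males among wt and 3 females and 1 male among mutants, set2 held 2 wt males beside 1 female and 3 male mutants, and set3 held 2 wt females. The fits of single sets have no sex term. At 8 months set1 alone, with 4 wt and 4 mutants, gave calls for all 6, where 3.29% of all genes were called higher, with values of 2.72, 1.72, 1.68, 2.94, 3.46 and 3.91 in the same order. Set2 alone, with 2 wt and 4 mutants, gave 2.63, 2.34, 1.63, 1.80, 2.19 and 4.98, and only Stxbp2 was called there (adjusted p = 3.31e-04, edgeR), against 0.240% of all genes called higher. The adjusted p-values of the other 5 in set2 ran from 0.0738 (Sfmbt2) to 0.564 (Kcp).

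In 5HT none of the 6 passed at 4 months in edgeR, where 0.0128% of 15633 genes were called higher. At an unadjusted p under 0.05 there were 5 of the 6, against 6.40% of all genes in either direction. DESeq2 called 3, against 0.256% of all genes called higher: Stxbp2 (adjusted p = 0.00476), Wnk4 (0.0201) and BC061194 (8.43e-04). All 6 differences were positive, with a median of 1.35 against 0.01 over all genes, and for 5 of the 6 every mutant was above every wt, as was so for 1.46% of all genes. At 8 months 1 of 6 passed against 0.249% of all genes, all 6 differences were positive with a median of 1.69 against 0.01, and 5 of the 6 did not overlap against 3.72%. DESeq2 called 5 of the 6 at 8 months, all but Kcp, and 0.793% of all genes as higher. The change of the 5HT effect from 4 to 8 months was not called for any of the 6 in edgeR, and 0.0128% of all genes were called in either direction. None had an unadjusted p under 0.05, against 3.97% of all genes, and DESeq2 called none of them and 0.179% of all genes. The values ran from -0.36 ± 1.19 for Echdc2 to 1.43 ± 1.39 for BC061194, and the BC061194 value was 0.14 without the 4-month wt S369.

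Between wt mDA and wt 5HT at 8 months, Stxbp2 alone of the 5 genes with enough counts was called, while 18.9% of 14855 genes were called in either direction. Sfmbt2 differed by -0.55 (95% interval -1.30 to 0.20), Kcp by -0.34 (-1.29 to 0.60), Echdc2 by 0.81 (-1.10 to 2.72) and Wnk4 by 0.24 (-0.97 to 1.44), on the log2 scale, mDA against 5HT. The Echdc2 value was 0.06 without 5HT wt S385 and 1.81 without 5HT wt S381. The cell types come from different strains and sorts, so these cannot be told apart from cell type. Stxbp2 was also the 1 gene of the 6 whose mutant effect differed between the cell types at 8 months, where 0.267% of 16873 genes were called in either direction. For the others the difference, mDA minus 5HT, was 0.65 ± 0.42 for Sfmbt2, 0.28 ± 0.56 for Kcp, -0.14 ± 0.70 for Echdc2, 0.77 ± 0.58 for Wnk4 and -1.52 ± 1.24 for BC061194. The widest intervals ran from -4.05 to 1.0 for BC061194 and from -1.57 to 1.30 for Echdc2, and that of Echdc2 holds differences of 2-fold in either direction.

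Mutant libraries at 8 months also differed in neuronal and glial markers. Over all 15425 genes in mDA at that age, 376 were called higher and 290 lower. Of 10 mDA markers tested, 7 fell in 8-month mDA mutants, among them Th (-1.22 ± 0.12, adjusted p = 2.17e-09) and Slc6a3 (-1.40 ± 0.14, adjusted p = 8.50e-10, edgeR). None of the 10 was called at 4 months in edgeR, where 89 of 15425 genes were called higher and 92 lower. Of 7 5HT markers, Htr1a, Slc6a4 and Tph2 fell in 8-month 5HT mutants, and Fev was called higher in 8-month mDA mutants. The summed level of 12 endothelial and mural markers was 11.1 to 65.3 CPM in 8-month mDA wt and 10.9 to 1103 in mutants, highest in D161, with 2 of 12 called higher (Cldn5 and Slco1a4). The sum of 12 astrocyte markers was 414 to 763 in wt and 522 to 2048 in mutants, highest in D176, with 3 of 12 called higher (Agt, Atp1b2 and Slc1a2). Ependymal and choroid markers summed to 12.3 to 115 and 15.6 to 198 CPM, with 0 of 5 called. Oligodendrocyte markers summed to 563 to 1102 and 526 to 1655, with 1 of 12 called (Ermn). Microglial markers summed to 53.0 to 104 and 47.5 to 114, and immune and blood markers to 4.84 to 23.4 and 4.45 to 16.5, with none called among 10 and 2 tested. In 5HT no gene of these non-neuronal lists was called at either age in edgeR, where 2 and 62 of 15633 genes were called at 4 and 8 months. D161 had the lowest Echdc2 and BC061194 among 8-month mDA mutants, and D176 the lowest Kcp and Wnk4. A fit without the 4 set2 mutants, which include both, was added after seeing the data. It leaves set2 with no mutant, so its contrast rests on the set1 libraries already given above and is no separate check. All 6 genes were called there, where 2.40% of all genes were called higher. The log2 fold changes were 2.72 for Stxbp2, 1.51 for Sfmbt2, 1.67 for Kcp, 2.96 for Echdc2, 3.45 for Wnk4 and 4.46 for BC061194. The part of these other cells in the levels of the 6 genes was not tested.

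Close relatives were taken by root name from the table, after the data had been seen: 13 rows named Stxbp, Sfmbt, Wnk or Echdc, of which 11 could be tested. None was called in edgeR in mDA or 5HT at either age, and their log2 differences in mDA ran from -0.28 to 0.37 at 4 months and from -0.39 to 0.35 at 8 months. Of all 15425 genes in mDA, 89 were called higher and 92 lower at 4 months, and 376 and 290 at 8 months. Of 15633 in 5HT, 2 were called at 4 months and 62 at 8 months. At these shares, 0 calls among 11 genes does not set the relatives apart from other genes. Sfmbt1 averaged 23.8 CPM in wt and 32.2 in mutants at 8 months in mDA (0.35 ± 0.28, adjusted p = 0.561). Wnk1, Wnk2 and Wnk3 differed by -0.33 ± 0.17, -0.00 ± 0.18 and 0.17 ± 0.19, and Echdc1 by 0.23 ± 0.50. In 5HT at 4 months Sfmbt1 averaged 15.5 CPM in wt and 43.5 in mutants (1.49 ± 0.46, adjusted p = 0.561), and at 8 months 20.6 and 23.6.

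Pathway partners were taken from lists that did not contain the 6 genes. Of all 15425 genes tested in mDA at 8 months, 376 were called higher and 290 lower. The single calls below are to be read beside that share, and no list was tested as a set. Among 17 tested syntaxin binding and exocytosis genes, Stx3, a syntaxin of apical and granule membranes, fell in 8-month mDA mutants, from 260 to 183 CPM (-0.59 ± 0.14, adjusted p = 0.00611, edgeR), and none rose. Among 10 MBT-repeat and related Polycomb genes, Scml4 fell from 29.8 to 16 CPM (-1.04 ± 0.28, adjusted p = 0.02, edgeR). Of 45 tested BMP pathway genes, 2 rose and 2 fell. The proteinase Bmp1, which cleaves the BMP inhibitor chordin, rose by 1.10 ± 0.32 (adjusted p = 0.0383), and its relative Tll1 fell by 1.48 (SE 0.35, adjusted p = 0.0069). Bmper, a secreted BMP binding protein with chordin-like repeats as in Kcp, rose from 2.7 to 8.53 CPM (2.04 ± 0.61, adjusted p = 0.044), and the shared signal transducer Smad4 was lower by -0.82 ± 0.23 (adjusted p = 0.0277, edgeR for these 4). Of 18 tested genes of the WNK pathway, Slc12a7, a potassium-chloride cotransporter on which WNK signalling acts, rose from 2.29 to 15.6 CPM (2.63 ± 0.57, adjusted p = 0.00231, edgeR). None of 21 crotonase and fatty acid oxidation genes was called at 8 months, and at 4 months 1 was, Acadvl, which fell from 160 to 102 CPM (-0.58 ± 0.14, adjusted p = 0.0262). The medians of the 5 lists in mDA at 8 months were 0.04, -0.40, 0.27, -0.04 and 0.25 in the order given, against 0.02 over all genes. In 5HT no gene of these lists was called at either age in edgeR, where 2 and 62 of 15633 genes were called at 4 and 8 months. Slc12a7 there averaged 5.27 CPM in wt and 27.0 in mutants at 8 months (2.92 ± 0.92, adjusted p = 0.344).

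Neighbouring genes were read from the same fits. Within 50 kb of them the table held 29 genes, none of these near Sfmbt2 apart from the hairpin rows inside it, which are not counted here, and 25 could be tested in mDA. None was called at 4 months in edgeR (median -0.03), where 89 of all 15425 genes were called higher and 92 lower. At 8 months 3 of 25 were called higher and none lower (median 0.22), against 2.44% called higher and a median of 0.02 over all genes. Of these, Retn, the gene of the secreted protein resistin, lies 11772 bp from Stxbp2 and rose from 0.427 to 3.58 CPM (3.55 ± 0.94, adjusted p = 0.019, edgeR). The wt level of Retn rests on 13 counts over 8 libraries, 3 of them at 0, so the size of its rise is uncertain. Ramp2, a receptor accessory protein that endothelial cells are known to express, lies 12287 bp from Wnk4 and rose from 3.26 to 15.5 CPM (2.18 ± 0.49, adjusted p = 0.00417), beside the endothelial sums given above. Atp6v1f, a proton pump subunit 2653 bp from Kcp, rose from 50.9 to 80.9 CPM (0.85 ± 0.21, adjusted p = 0.0101). Polycomb genes are among these neighbours too. Bmi1, 7382 bp from BC061194, differed by 0.12 at 8 months (adjusted p = 0.877), and Ezh1, 34074 bp from Wnk4, by 0.22 (adjusted p = 0.57, edgeR). In 5HT 0 of 26 tested neighbours were called at either age, where 2 and 62 of 15633 genes were called at 4 and 8 months.

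**Figure D3:**
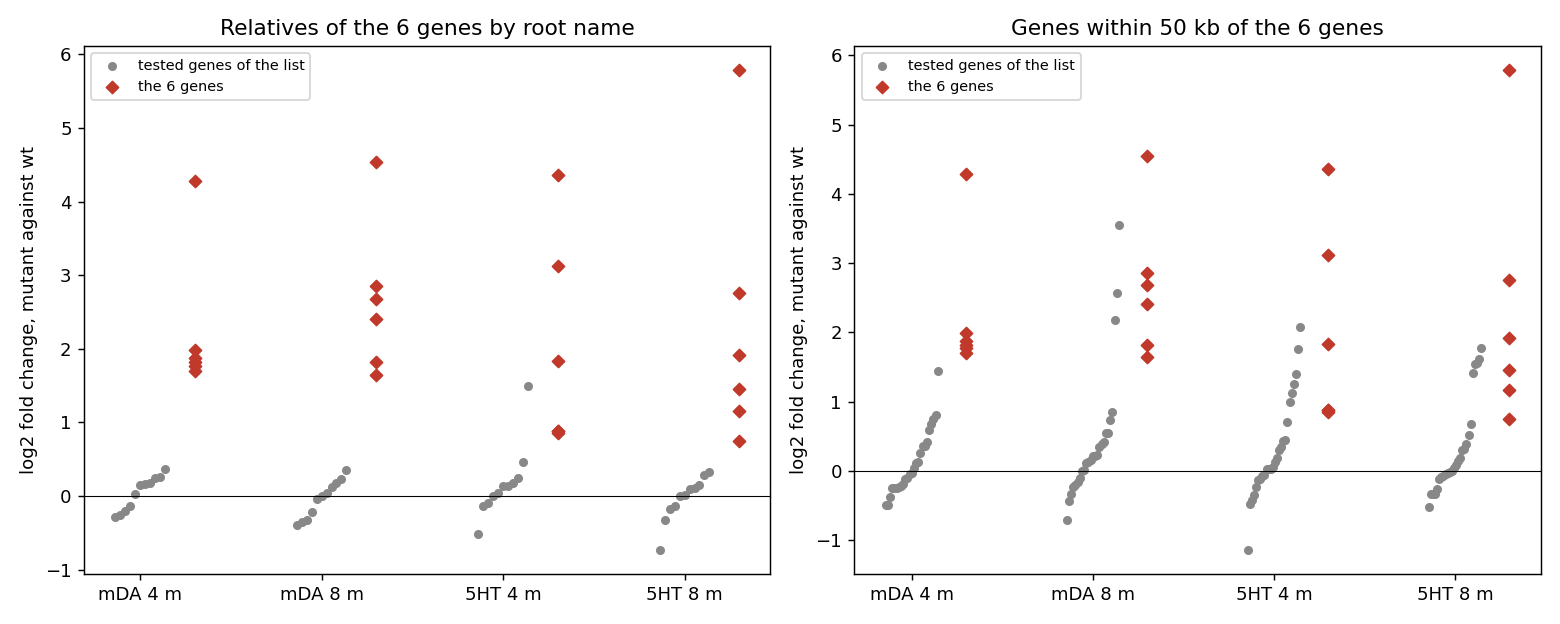
Log2 fold change of mutant against wt (y axis) in each cell type and age (m, months) for the 11 tested relatives by root name (left, grey points) and the tested genes within 50 kb (right, grey points), beside the 6 genes themselves (red diamonds). In mDA at 8 months the relatives lie between -0.39 and 0.35 and the 6 genes between 1.64 and 4.54. The highest neighbour there is Retn at 3.55, which had only 13 counts in wt.

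Across all 51 libraries, the genes whose log2 CPM followed each of the 6 most closely were found among 16451 genes by Pearson's r. These values describe libraries that share cell type, genotype, age and set, and carry no test. Stxbp2 followed Gata2 (r = 0.85), a transcription factor of the serotonergic lineage, and Rnf207 (r = 0.80). Gata2 averaged 70.6 CPM in 5HT wt at 8 months, 2.08 in mDA wt and 26.7 in 8-month mDA mutants (Stxbp2 levels are given above). In 8-month 5HT mutants Gata2 was at 39.3 CPM (-0.87 ± 0.25, adjusted p = 0.219, edgeR), whereas Stxbp2 stood above its wt level there. Wnk4 followed the homeobox gene Onecut2 (r = 0.87) and BC061194 (r = 0.85), and BC061194 followed Wnk4 and Onecut2 (r = 0.84). Onecut2 averaged 21.3 CPM in mDA wt and 131 in mutants at 8 months, and 8.25 and 99.6 in 5HT. Sfmbt2 followed Wnk4 (r = 0.80) and Onecut2 (r = 0.78), Kcp followed Sfmbt2 and Wnk4 (r = 0.69 for both), and Echdc2 followed the transcription factors Tbx2 (r = 0.80) and Barx1 (r = 0.75). Among the 15 pairs of the 6 genes r ran from 0.14 to 0.85. After the group means were taken out, the same pairs ran from -0.14 to 0.39 with a median of 0.10.

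**Figure D4:**
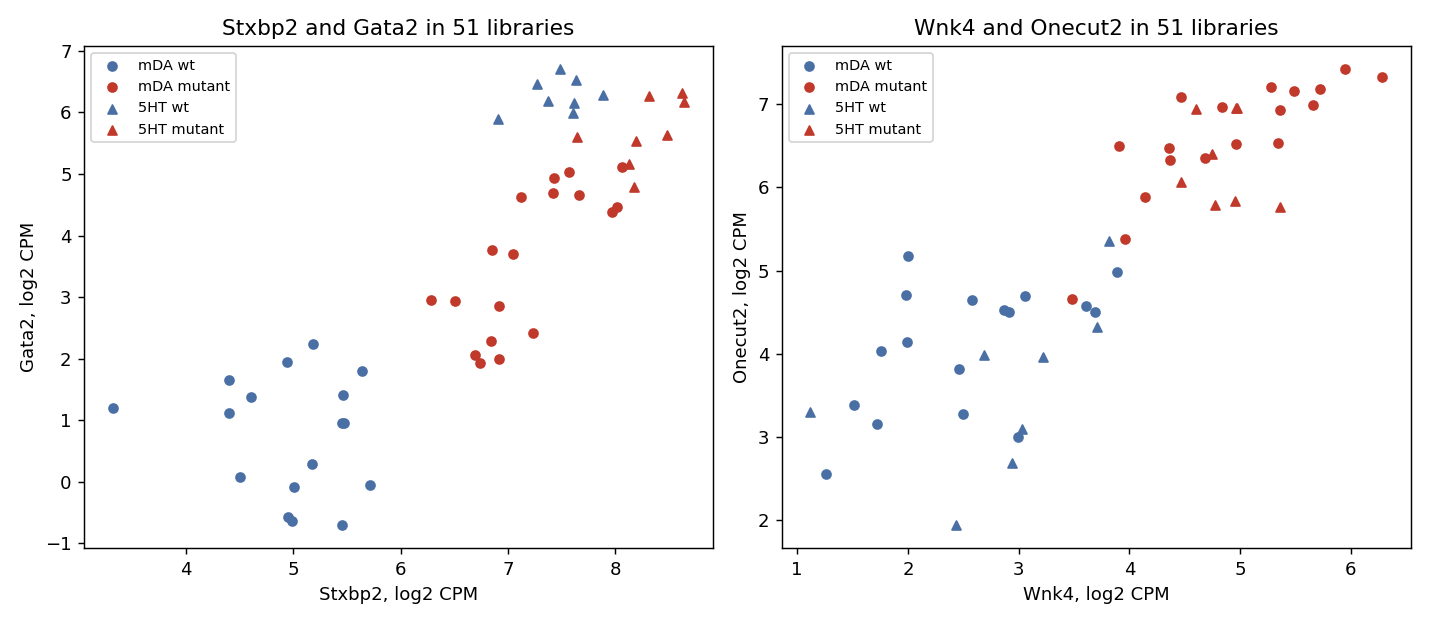
Stxbp2 against Gata2 (left) and Wnk4 against Onecut2 (right) in 51 libraries, both axes in log2 CPM, by cell type (circles, mDA; triangles, 5HT) and genotype (blue, wt; red, mutant). On the Gata2 axis the 8-month mDA mutants lie above every mDA wt and below every 5HT wt, while on the Stxbp2 axis some of them lie above every 5HT wt; in 5HT every mutant is above every wt for both Wnk4 and Onecut2, and in mDA the 4-month mutant C213 lies among the wt.

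Part of some counts could come from overlapping genes. On the opposite strand, exons of Gm11615 overlap 7.38% of the exon length of Wnk4, those of Gm20539 overlap 8.34% of BC061194, and those of Atp6v1fnb and Gm26627 overlap 2.15% and 1.22% of Kcp. No source used here says whether reads were counted by strand, and reads in these stretches cannot be told apart. For Stxbp2, Sfmbt2 and Echdc2 the GENCODE annotation showed no such overlap.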

How the data were processed

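Neurons were sorted and their RNA was made into Smart-seq2 libraries, per the labels. What the authors deposited is a single count table of unnormalized reads with 24564 genes and 51 libraries, plus a reporter row that held up to 0.00294% of the counts of a library and was set aside. The submitters' processing notes name STAR 2.7.0a and the builds mm10 and GRCm38. How reads were assigned to genes, and whether by strand, is not stated there. Reads carry no molecular tags as counted, so floors cover counting error only. No sample column was left unused (0), 0 column pairs were identical, and replicates differed beyond sampling noise (chi-square per degree of freedom at least 6.97).

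Counts were tested with edgeR 4.0.16 in R 4.3.3 (TMM scaling, filterByExpr with a minimum count of 10, robust quasi-likelihood fit) and Benjamini-Hochberg adjustment over all genes tested, with calls at an adjusted p under 0.05. A first fit held all 35 mDA libraries, with terms for sex and for set within each age. Another held all 16 5HT libraries with a term for sex. The wt comparison used the 12 wt libraries of 8 months with a term for sex, and the difference between cell types all 24 libraries of 8 months with terms for sex and for set within cell type. SE is the size of the log2 fold change over the root of its F statistic. CPM use TMM-scaled library sizes over all 51 libraries, and log2 CPM a prior count of 2. The scripts were tested on simulated data. Alternatives were RLE scaling, no filter, DESeq2 1.42.0, no sex or set term, single sets and single libraries left out, and leaving out animals chosen after seeing the data.

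The 6 genes and the gene lists (pathway partners and markers of mDA, 5HT, oligodendrocyte, astrocyte, microglia, endothelial and mural, ependymal and choroid, immune and blood cells) were chosen with earlier results of these data known. Other genes are named by a rule: up to 3 called genes per pathway list, called genes within 50 kb, the 2 genes most like each member by Pearson's r (unnamed transcripts, Y-linked genes and Xist left out), and Eed, Th, Slc6a3, Tph2 and Slc6a4. The Spag6 row, the relatives by root name, Bmper, Acadvl, Bmi1, Ezh1 and called marker genes are named outside that rule, after their values were seen. Positions and promoters are RefSeq's on GRCm38.p6, matched by accession for 24305 genes (98.9%) and for 6 of 6 members, and exon overlaps come from GENCODE. Some single results are not reported here.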

Additional observations from a re-analysis of the deposited data

Results flagged for a closer look

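Of 48 pairs of gene and group, 4 held a library far from the others of its group by the gap to its nearest neighbour, and chance flags about 1 in 20. Stxbp2 was 200 CPM in 5HT mutant S443 at 8 months, with the next at 280. Echdc2 was 16.1 in 5HT mutant S427 at 4 months, with the next at 4.05. Wnk4 was 52.3 in mDA mutant D186 at 4 months, with the next at 30.7, and BC061194 was 1.80 in mDA wt D295 at 4 months, with the next at 0.582. The mutant effect on Stxbp2 at 8 months differed between mDA and 5HT by 1.92 on the log2 scale in edgeR (adjusted p = 9.18e-06), with every mutant above every wt in both cell types.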

How the results depend on the processing

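In mDA at 8 months all 6 genes were called under 25 of 26 alternatives, the 16 that left out 1 library included (6 to 6), and 1 was called in set2 alone. Some of these could hardly move the values. Wild-type C250 and D833 do not enter this contrast, and the fit without the set2 mutants rests on set1. In 5HT at 4 months 0 were called in edgeR, 0 to 0 with 1 library left out, and 3 in DESeq2. In 5HT at 8 months 1 was called in edgeR, 0 to 1 with 1 library left out, 2 without the sex term and 5 in DESeq2. The wt comparison and the difference between cell types kept 1 call, Stxbp2, throughout their 16 and 13 alternatives, and the 5HT age difference kept 0 in 20. For the difference between cell types only the 8 5HT libraries were left out in turn. No fit of it left out a single mDA library. The cause of the differences between tools was not tested. No paired analysis was possible because the replicate numbers are animal numbers that no 2 groups share.

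Of 578 values recomputed for single genes in tested comparisons, 565 kept their direction. All 42 recomputed for mDA at 4 months kept theirs, which the choice of the genes largely fixes and which supports nothing. The reversals were all in differences that were not called. For the 5HT age difference they were Echdc2 at 0.38 without wt S381 and 0.18 without mutant S427 (range -0.76 to 0.38), Stxbp2 at 0.05 without wt S385 (range -0.24 to 0.05), and Wnk4 at -0.02 without wt S385, -0.08 without wt S369 and -0.32 without wt S373 (range -0.32 to 0.50). Wnk4 between wt cell types was -0.17 without mDA C250 (range -0.17 to 0.46). For the cell type difference, Kcp was -0.02 without the set term and -0.01 without wt S382 (highest 0.54), and Echdc2 was 0.06 without the sex term, 0.23 without the set term, 0.24 without wt S383 and 0.18 without wt S385 (lowest -1.0). BC061194 in mDA at 4 months was 3.03 in set1 and 6.17 in set3.

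Genes called in either direction numbered 666 in mDA at 8 months, 1060 in DESeq2, 393 without the sex term and 57 in set2 alone, and 229 higher and 154 lower with the 8-month libraries alone. In 5HT they numbered 2 at 4 months, 48 in DESeq2, 12 without the filter and 0 to 4 with 1 library left out. At 8 months they numbered 62 (39 higher, 23 lower), 124 higher and 52 lower in DESeq2, and 30 to 49 with 1 library left out. The 5HT age difference had 2, 28 in DESeq2 and 5 without the filter. The cell type difference had 45, 122 in DESeq2 and 20 to 39 with a single library of 5HT left out. Depth limits Echdc2 and BC061194 in wt libraries, where single libraries had 0 counts. In 5HT both passed the low-count filter only through their mutant libraries.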
